A study of Mus musculus with 7 samples.

Results

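The insulin-like growth factor (IGF) genes described here are 10 of the 55401 genes in the count table, taken by exact gene name. They are the ligands *Igf1* and *Igf2*, the receptors *Igf1r* and *Igf2r*, and the binding proteins *Igfbp2*, *Igfbp3*, *Igfbp4*, *Igfbp5*, *Igfbp6*, and *Igfbp7*. RNA-Seq was performed on the right knees of male C57BL/6J mice, 4 samples labelled WT and 3 labelled Trpc1-/-, collected 2 weeks after destabilization of the medial meniscus (DMM), a joint surgery that induces osteoarthritis, at 10 weeks of age. All samples had undergone DMM. By the methods each pooled 2 to 3 mouse knees, although each label carries a single mouse number. The Trpc1-/- mice lack an exon of the calcium channel gene *Trpc1* in every tissue, and the WT controls came from the same colony. By the labels the tissue is articular cartilage, whereas the methods of the study list subchondral bone as well, and the methods give 3 WT and 4 Trpc1-/- samples. The groups of the labels were used.

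IGF1 and IGF2 are small secreted growth factors that signal through the tyrosine kinase receptor IGF1R to the PI3K-AKT and MAPK pathways. The receptor encoded by *Igf2r*, also the receptor for mannose 6-phosphate, carries IGF2 to lysosomes and does not signal as a kinase. The binding proteins hold IGFs in the extracellular fluid and the matrix, and proteases that cut them release the ligands. In cartilage, IGF1 is known as an anabolic factor that stimulates chondrocytes to make proteoglycan and collagen, and in bone it is made by osteoblasts and stored in the matrix.

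The counts on genes summed to between 52.1 and 118 megacounts per sample, and WT replicate 1 was the shallowest. That sample also stood apart in its content, with a summed level of 10 neutrophil markers of 5569 CPM (counts scaled to the TMM-normalized library size), compared with 12996 or more in the other 6 samples. The logFC of the IGF genes, their order, and their profiles are therefore also given without it. *Trpc1* itself lay at 4.83, 4.55, 4.77, and 4.33 CPM in WT replicates 1 to 4 and at 3.35, 3.79, and 3.04 CPM in Trpc1-/- replicates 1 to 3, so that every Trpc1-/- sample was below every WT sample, although the counts do not separate the deleted exon. Chondrocyte genes were abundant, *Col2a1* with 1453 to 3300 CPM, but so were the bone collagen *Col1a1*, with 4873 to 12768 CPM, and red cell genes. The samples thus held RNA of several joint tissues. In such bulk samples, fewer cells of a type and less RNA per cell cannot be told apart.

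Of the 10 IGF genes, 9 passed the filter on low counts, which was more than 1 CPM in at least 2 samples, and *Igfbp2* did not. With edgeR's quasi-likelihood test and Benjamini-Hochberg adjustment over all 16429 tested genes, 0 of the 9 had an adjusted P under 0.05. The test called 0% of all tested genes. DESeq2 called 1.79% of them, limma-voom called 0.00609%, and both called 0 of these 9. At an unadjusted P under 0.05 in edgeR were 4 of the 9, *Igf2r*, *Igfbp3*, *Igfbp5*, and *Igfbp6*, all with a lower mean in Trpc1-/- samples. Over all tested genes 10% had such a P, 5.49% with a lower and 4.51% with a higher mean. The mean was lower in Trpc1-/- samples for 8 of the 9 genes and higher for *Igfbp4*, and 51.9% of all tested genes were lower. The median log2 fold change (logFC) of the 9 genes was −0.23, compared with −0.0088 over all tested genes. For 3 of the 9, *Igf2r*, *Igfbp3*, and *Igfbp5*, every Trpc1-/- sample was below every WT sample, which held for 6.42% of all tested genes. The reverse held for 0 of the 9 and for 7.15% of all tested genes.

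**Figure D1:**
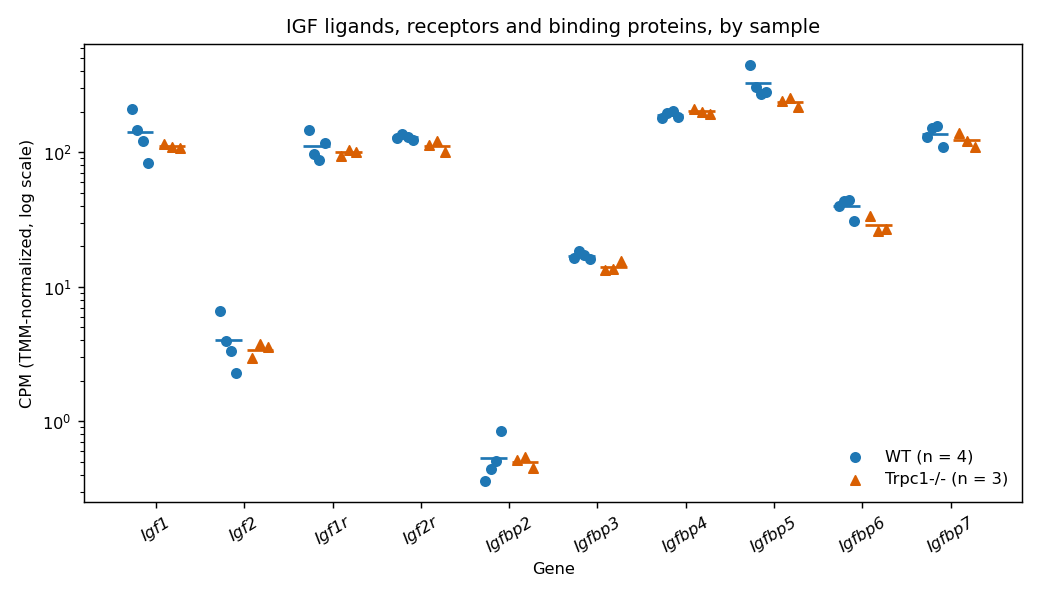
CPM of each IGF gene on a log axis, with 1 circle for each of the 4 WT samples, 1 triangle for each of the 3 Trpc1-/- samples, and a line at each group mean. *Igf1*, *Igf2*, and *Igfbp5* reach 210, 6.58, and 447 CPM in 1 WT sample, whereas the Trpc1-/- samples lie close together.

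*Igf1* (ENSMUSG00000020053, chromosome 10 of GRCm38, 87858265 to 87937042, plus strand), the anabolic ligand, had 210, 147, 122, and 83.4 CPM in WT replicates 1 to 4 and 116, 110, and 108 CPM in Trpc1-/- replicates 1 to 3. The WT samples spanned a 2.52-fold range and the Trpc1-/- samples, all inside it, a 1.08-fold range. Its logFC was −0.33 (SE 0.27, 95% interval −0.97 to 0.30, adjusted P = 0.663 in edgeR). Without WT replicate 1 the logFC was −0.077. The mouse numbers in the labels form a lower series, to which WT replicates 1 and 2 and every Trpc1-/- sample belong, and a higher series with WT replicates 3 and 4. Within the lower series, the logFC of *Igf1* was −0.68 (SE 0.17, adjusted P = 0.373 in edgeR). Its only WT samples are replicates 1 and 2, with 210 and 147 CPM, and the series was not fitted without WT replicate 1. The same limit applies to each later value within the lower series. The higher series holds WT samples only.

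*Igf2* (ENSMUSG00000048583, chromosome 7, 142650766 to 142666816, minus strand), an imprinted ligand with high expression in fetal tissue, was far less abundant. It had 6.58, 3.93, 3.31, and 2.28 CPM in WT replicates 1 to 4 and 2.94, 3.73, and 3.58 CPM in Trpc1-/- replicates 1 to 3. The groups overlapped, and the 4 WT samples ranked in the same order for *Igf2* as for *Igf1*. Its logFC was −0.23 (SE 0.33, 95% interval −1.0 to 0.54, adjusted P = 0.806 in edgeR), turned to 0.10 without WT replicate 1, and was −0.62 within the lower series. *H19*, the noncoding RNA that neighbours *Igf2* and is expressed from the other parental allele, was looked at after its values were seen. It had 50.5, 40.2, 37.0, and 22.4 CPM in WT replicates 1 to 4, which is again the order of *Igf2*, and 30.9 to 33.8 CPM in Trpc1-/- samples (logFC −0.22, SE 0.24, adjusted P = 0.738 in edgeR).

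The proportion between both ligands varied less than either level among WT samples (1.17-fold) and more than either among Trpc1-/- samples (1.34-fold, with 1.08-fold for *Igf1* and 1.27-fold for *Igf2*). Per kilobase of exon, the *Igf1* level was 18.5, 21.6, 21.2, and 21.2 times the *Igf2* level in WT replicates 1 to 4 and 22.8, 17.1, and 17.4 times in Trpc1-/- replicates 1 to 3. On average the ratio was 20.6 ± 1.45 over the WT samples (SD, n = 4) and 19.1 ± 3.24 over the Trpc1-/- samples (SD, n = 3). The difference of the log2 ratio, −0.12, did not pass a two-sided exact permutation test (P = 0.343, where the 35 arrangements allow 0.0286 at the smallest).

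*Igf1r* (ENSMUSG00000005533, chromosome 7, 67952827 to 68233668, plus strand), the signaling receptor, had 146, 97.1, 87.5, and 118 CPM in WT replicates 1 to 4 and 94.4, 104, and 101 CPM in Trpc1-/- replicates 1 to 3. The Trpc1-/- samples lay within the WT range, and the logFC was −0.17 (SE 0.17, 95% interval −0.56 to 0.23, adjusted P = 0.725 in edgeR). Without WT replicate 1 it was −0.016, and within the lower series −0.28. *Igf2r* (ENSMUSG00000023830, chromosome 17, 12682406 to 12769664, minus strand), which clears IGF2, had 127, 137, 131, and 123 CPM in WT replicates 1 to 4 and 112, 122, and 99.7 CPM in Trpc1-/- replicates 1 to 3. The groups did not overlap, but the highest Trpc1-/- sample came close to the lowest WT sample. Its logFC was −0.22 (SE 0.093, 95% interval −0.43 to −0.0022), with an unadjusted P of 0.0482 and an adjusted P of 0.499 in edgeR. The value was −0.23 without WT replicate 1, −0.25 within the lower series, and −0.29 to −0.14 when single samples were omitted. *Airn*, the antisense RNA that overlaps *Igf2r*, had 605 to 907 counts per sample and was counted by strand.

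*Igfbp5* (ENSMUSG00000026185, chromosome 1, 72857932 to 72874884, minus strand), a binding protein made by osteoblasts and chondrocytes that attaches to matrix, had the most counts of the family. It lay at 447, 304, 274, and 281 CPM in WT replicates 1 to 4 and at 243, 255, and 219 CPM in Trpc1-/- replicates 1 to 3. All Trpc1-/- samples were below all WT samples, and WT replicate 1 was far above the other WT samples. On average this was 327 ± 81.6 CPM over the WT samples (SD, n = 4) against 239 ± 18.3 CPM over the Trpc1-/- samples (SD, n = 3), 0.730 times the WT level in the fit. Its logFC was −0.45 (SE 0.18, 95% interval −0.88 to −0.024), with an unadjusted P of 0.0410 and an adjusted P of 0.485 in edgeR. Without WT replicate 1 the logFC shrank to −0.26 while its SE fell to 0.081, the adjusted P was 0.184 in edgeR, and DESeq2 called the gene (adjusted P = 0.0367; 5.49% of all tested genes were called in that fit, and 0.32% by edgeR). Within the lower series the logFC was −0.66.

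*Igfbp6* (ENSMUSG00000023046, chromosome 15, 102144362 to 102149511, plus strand), which prefers IGF2 over IGF1, had 39.8, 43.8, 43.9, and 30.6 CPM in WT replicates 1 to 4 and 33.6, 26.1, and 26.7 CPM in Trpc1-/- replicates 1 to 3. WT replicate 4 fell among the Trpc1-/- samples, so that the groups overlapped. The logFC was −0.46 (SE 0.15, 95% interval −0.81 to −0.11), with an unadjusted P of 0.0170 and an adjusted P of 0.433 in edgeR. It depended little on WT replicate 1 (−0.45 without it) and was −0.54 within the lower series. Without WT replicate 4 the logFC was −0.56 in DESeq2, which then called the gene (adjusted P = 0.0119; 1.72% of all tested genes were called).

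*Igfbp3* (ENSMUSG00000020427, chromosome 11, 7206086 to 7213923, minus strand), the main IGF carrier of serum, had 16.4, 18.3, 17.2, and 16.0 CPM in WT replicates 1 to 4 and 13.3, 13.5, and 15.6 CPM in Trpc1-/- replicates 1 to 3. The groups did not overlap, although Trpc1-/- replicate 3 was near the lowest WT sample. Its logFC was −0.27 (SE 0.089, 95% interval −0.47 to −0.062), with an unadjusted P of 0.0173 and an adjusted P of 0.433 in edgeR. The value was −0.29 without WT replicate 1 and −0.30 within the lower series, and it ranged from −0.34 to −0.23 when single samples were omitted.

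*Igfbp4* (ENSMUSG00000017493, chromosome 11, 99041244 to 99054392, plus strand), an inhibitory binding protein cleaved by the protease PAPP-A, was the steadiest member. It had 181, 196, 202, and 184 CPM in WT replicates 1 to 4 and 209, 201, and 193 CPM in Trpc1-/- replicates 1 to 3. Its highest sample was 1.16 times its lowest, where the median over the 9762 tested genes with a mean of at least 10 CPM was 1.39. The logFC was 0.077 (SE 0.082, 95% interval −0.11 to 0.27, adjusted P = 0.733 in edgeR). Without WT replicate 1 it was 0.050, and within the lower series 0.092.

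*Igfbp7* (ENSMUSG00000036256, chromosome 5, 77349240 to 77408041, minus strand), a low-affinity IGF binder of vessels and matrix, had 130, 152, 157, and 110 CPM in WT replicates 1 to 4 and 138, 122, and 109 CPM in Trpc1-/- replicates 1 to 3. The groups overlapped, and the logFC was −0.16 (SE 0.15, 95% interval −0.49 to 0.18, adjusted P = 0.699 in edgeR). Without WT replicate 1 it was −0.18, and within the lower series −0.20. The gene overlaps *Polr2b* on the opposite strand, which had 2821 to 12062 counts per sample, so that its count rests on the strand information. *Igfbp2* (ENSMUSG00000039323, chromosome 1, 72824503 to 72852474, plus strand) was barely expressed. Its counts were 17, 47, 62, and 66 for WT replicates 1 to 4, against 63, 50, and 44 for Trpc1-/- replicates 1 to 3. This was 0.358 to 0.840 CPM in WT and 0.450 to 0.539 CPM in Trpc1-/- samples, above the 0.0244 to 0.0632 CPM that 3 counts represent but below the filter. At these counts no difference could be detected (logFC −0.083, SE 0.32, adjusted P = 0.975 in edgeR without the filter). *Igfbp2* and *Igfbp5* lie 5.46 kb apart on chromosome 1, yet *Igfbp5* was at 219 CPM or more and *Igfbp2* below 1 CPM in every sample. *Igfbp1*, 3.54 kb from *Igfbp3* on chromosome 11, had 0 counts in all samples.

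**Figure D2:**
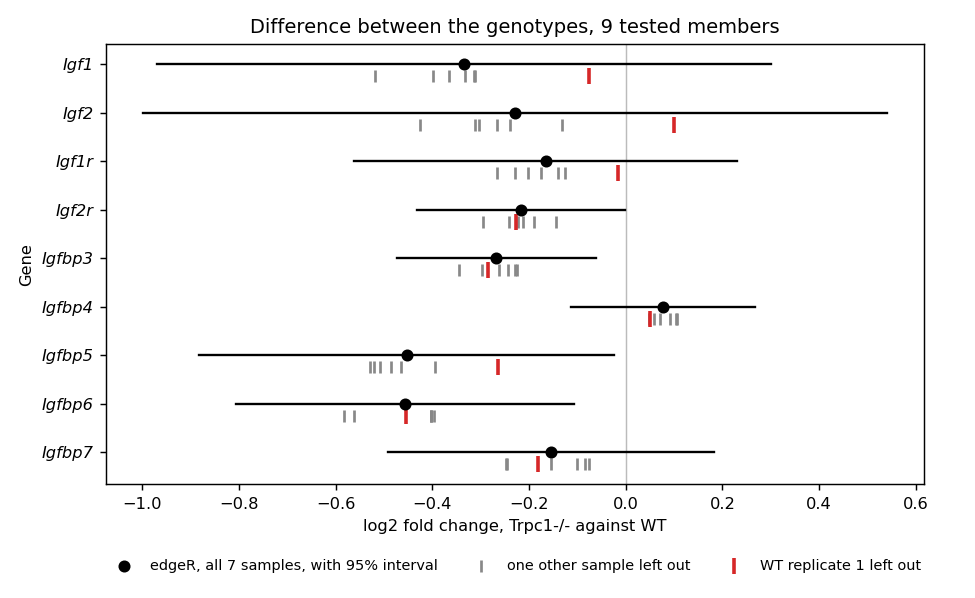
logFC of the 9 tested genes, with the 95% interval of edgeR as a line and the values with 1 sample left out as ticks below it (red without WT replicate 1). The intervals of *Igf2r*, *Igfbp3*, *Igfbp5*, and *Igfbp6* lie below 0 before adjustment, and the tick without WT replicate 1 moves *Igf1*, *Igf1r*, and *Igf2* to −0.077, −0.016, and 0.10.

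The promoters of the 4 genes with an unadjusted P under 0.05 in edgeR are shown because all were lower in Trpc1-/- samples. Each line gives the 250 bases before the RefSeq start (GRCm38.p6), 5′ to 3′ on the strand of the gene. Capitals mark every match, on either strand, to 1 of 5 motifs. These are TATAAA, known as the TATA box, then CCAAT, then GGGCGG, known as the GC box, then CANNTG, known as the E-box, and GGAATG, a motif bound by TEAD factors.
Igf2r, chr17:12769707-12769956, - strand: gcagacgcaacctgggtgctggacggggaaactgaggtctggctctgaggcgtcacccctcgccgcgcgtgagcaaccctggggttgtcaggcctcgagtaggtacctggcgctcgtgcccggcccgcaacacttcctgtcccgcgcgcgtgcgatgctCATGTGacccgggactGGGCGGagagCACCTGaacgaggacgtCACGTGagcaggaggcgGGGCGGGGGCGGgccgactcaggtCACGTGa
Igfbp3, chr11:7213924-7214173, - strand: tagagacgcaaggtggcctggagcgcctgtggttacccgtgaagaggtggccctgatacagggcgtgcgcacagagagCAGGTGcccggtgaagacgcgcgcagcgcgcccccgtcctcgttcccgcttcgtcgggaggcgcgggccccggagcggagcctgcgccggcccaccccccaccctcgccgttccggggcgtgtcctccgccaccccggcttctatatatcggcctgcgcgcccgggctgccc
Igfbp5, chr1:72874866-72875115, - strand: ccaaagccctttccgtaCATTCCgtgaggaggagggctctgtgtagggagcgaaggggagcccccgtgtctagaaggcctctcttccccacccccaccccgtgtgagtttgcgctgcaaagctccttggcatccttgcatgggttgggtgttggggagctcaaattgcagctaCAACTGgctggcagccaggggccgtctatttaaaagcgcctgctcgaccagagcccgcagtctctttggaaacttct
Igfbp6, chr15:102143936-102144185, + strand: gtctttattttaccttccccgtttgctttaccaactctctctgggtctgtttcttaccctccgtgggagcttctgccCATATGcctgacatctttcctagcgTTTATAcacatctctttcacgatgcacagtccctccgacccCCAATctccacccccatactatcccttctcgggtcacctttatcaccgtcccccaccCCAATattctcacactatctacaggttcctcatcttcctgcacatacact
The 4 promoters had no motif in common except the E-box, which 66.2% of 32851 promoters of this length hold. *Igf2r* had 4 E-boxes and 3 GC boxes, and 32.7% of all promoters hold a GC box. *Igfbp3* had 1 E-box, and *Igfbp5* had 1 E-box and 1 TEAD site (12.6% of promoters). *Igfbp6* had 1 match to TATAAA, on the opposite strand at position −148 (12.4%), 2 CCAAT boxes (33.8%), and 1 E-box. Only the exact letters TATAAA were searched. AT-rich stretches nearer the start, such as tatatat in *Igfbp3* and tatttaaa in *Igfbp5*, were therefore not marked, and the matches do not tell which promoters have a working TATA box. Their GC content was 69.2%, 73.2%, 58.8%, and 49.6%, with a median of 52.4% over all promoters. The RefSeq start of *Igfbp6* lies 176 bases before the start of the gene in GENCODE M21, and that of *Igf2r* lies 42 bases before it.

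To compare levels between genes, CPM was divided by the length of all annotated exons in kilobases. Over the 7 samples, the levels per kilobase were 109 ± 15.7 for *Igfbp7* (SD, n = 7), 48.1 ± 12.5 for *Igfbp5*, 44.2 ± 2.29 for *Igfbp4*, 31.4 ± 6.85 for *Igfbp6*, 13.1 ± 1.34 for *Igf2r*, and 12.9 ± 4.12 for *Igf1*. They were lower for *Igf1r* (6.37 ± 1.16), *Igfbp3* (5.03 ± 0.592), *Igf2* (0.657 ± 0.237), and *Igfbp2* (0.282 ± 0.0826). *Igfbp7* led in 7 of 7 samples. *Igfbp5* and *Igfbp4* did not differ beyond their spread, with *Igfbp5* ahead in 3 of 7 samples, nor did *Igf2r* and *Igf1* (4 of 7) or *Igf1r* and *Igfbp3* (5 of 7). *Igf1* was above *Igf1r* in 7 of 7 samples, although their ranges overlapped. By group mean, *Igfbp5* came before *Igfbp4* and *Igf1* before *Igf2r* in WT, and both pairs were reversed in Trpc1-/- samples. The order of *Igf1* and *Igf2r* was not uniform within either group. *Igf1* was ahead in WT replicates 1 (21.2 against 13.6) and 2 (14.8 against 14.7). It was behind in WT replicates 3 (12.3 against 14.1) and 4 (8.42 against 13.2). Among Trpc1-/- samples it was ahead in replicate 3 only (10.9 against 10.7). *Igfbp4* per kilobase was 47.4, 45.5, and 43.8 and *Igfbp5* 40.4, 42.4, and 36.4 in Trpc1-/- replicates 1 to 3. Without WT replicate 1, *Igfbp4* came before *Igfbp5* over the other 6 samples. The order depends on the length used. With the longest transcript *Igfbp4* passed *Igfbp5* and *Igf1* passed *Igf2r*, and with the coding length, which leaves out the long untranslated regions of *Igf1* and *Igfbp5*, *Igfbp5*, *Igf1*, and *Igfbp4* came before *Igfbp7*.

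The binding proteins were further described by their share of the summed binding protein level per kilobase. *Igfbp7* held 44.9% ± 3.77 over the WT samples (SD, n = 4) and 46.7% ± 1.51 over the Trpc1-/- samples (SD, n = 3), and *Igfbp5* held 21.6% ± 4.86 and 18.3% ± 1.24. The share of *Igfbp4* was 15.5%, 16.7%, 17.2%, and 19.6% in WT replicates 1 to 4 and 20.0%, 21.0%, and 21.9% in Trpc1-/- replicates 1 to 3. That of *Igfbp6* was 13.6%, 14.8%, 14.8%, and 13.0% in WT and 12.8%, 10.8%, and 12.0% in Trpc1-/- samples. Both shares were free of overlap between the groups, and no test was made on them. The gaps were narrow, 19.6% against 20.0% for *Igfbp4* and 13.0% against 12.8% for *Igfbp6*. The shares of *Igfbp2*, *Igfbp3*, *Igfbp5*, and *Igfbp7* overlapped. All are parts of the same sum and not independent, so a share also rises when the other levels fall. The CPM of *Igfbp4* itself overlapped, with 181 to 202 in WT and 193 to 209 in Trpc1-/- samples. Without division by length, the share of *Igfbp4* stayed free of overlap (22.2% to 29.6% in WT and 32.5% to 34.3% in Trpc1-/- samples). That of *Igfbp6* then overlapped (4.89% to 6.32% and 4.23% to 5.28%). *Igfbp3* and *Igfbp2* held 2.13% ± 0.248 and 0.122% ± 0.0454 over all samples (SD, n = 7).

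**Figure D3:**
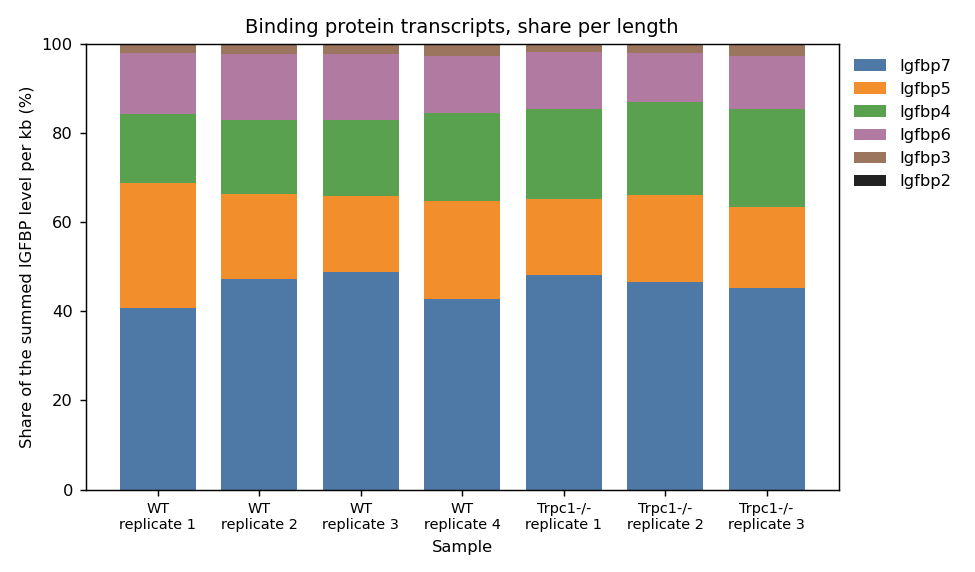
Share of each binding protein in the summed level per kilobase of the 6 binding protein genes, with 1 bar per sample that adds up to 100%. The share of *Igfbp4* is 15.5% to 19.6% in WT and 20.0% to 21.9% in Trpc1-/- samples.

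The profile of each gene over the 7 samples was then compared with those of other genes by the root mean square (RMS) difference of log2 CPM, centred on its mean. This is a description of 7 samples that share their libraries. Within the family, *Igf1* and *Igf2* had each other as nearest member (RMS difference 0.154), and *Igf2r* had *Igfbp3* (0.144). *Igf1r* and *Igfbp5* were nearest to each other (0.202), and *Igfbp6* had *Igfbp7* as its nearest (0.167). Among all tested genes with a mean of at least 10 CPM, the most alike were *Aebp1* (0.065) and *Fndc1* (0.087) for *Igf1*, *Adamtsl3* (0.108) and *Nfix* (0.123) for *Igf2*, *Naip6* (0.028) and *Aak1* (0.030) for *Igf1r*, and *Twsg1* (0.027) and *Tmem39a* (0.033) for *Igf2r*. They were *Tbx2* (0.034) and *Sec16b* (0.036) for *Igfbp5*, *Ecm1* (0.094) and *Trim47* (0.103) for *Igfbp6*, *Ccnyl1* (0.051) and *S100a16* (0.063) for *Igfbp3*, *Knop1* (0.018) and *Sf3a1* (0.022) for *Igfbp4*, and *Nupr1* (0.058) and *Tspan2* (0.074) for *Igfbp7*. The profiles were compared again without WT replicate 1 only, so the part of any other sample was not tested. WT replicate 1 lay farthest from the mean for *Igf1*, *Igf2*, *Igf1r*, *Igfbp4*, and *Igfbp5*. Without it, an alternative chosen after seeing the data, 5 of the 18 most alike genes remained, namely *Adamtsl3* for *Igf2*, *Twsg1* and *Tmem39a* for *Igf2r*, *Ccnyl1* for *Igfbp3*, and *Sec16b* for *Igfbp5*. Within the family, the smallest difference was then between *Igf2r* and *Igfbp5* (0.047), and that between *Igf1* and *Igf2* was 0.160. *Igf1* then had *Igfbp7* as its nearest member (0.145) rather than *Igf2*. *Igf1r* had *Igfbp4* (0.182) rather than *Igfbp5* (0.200).

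**Figure D4:**
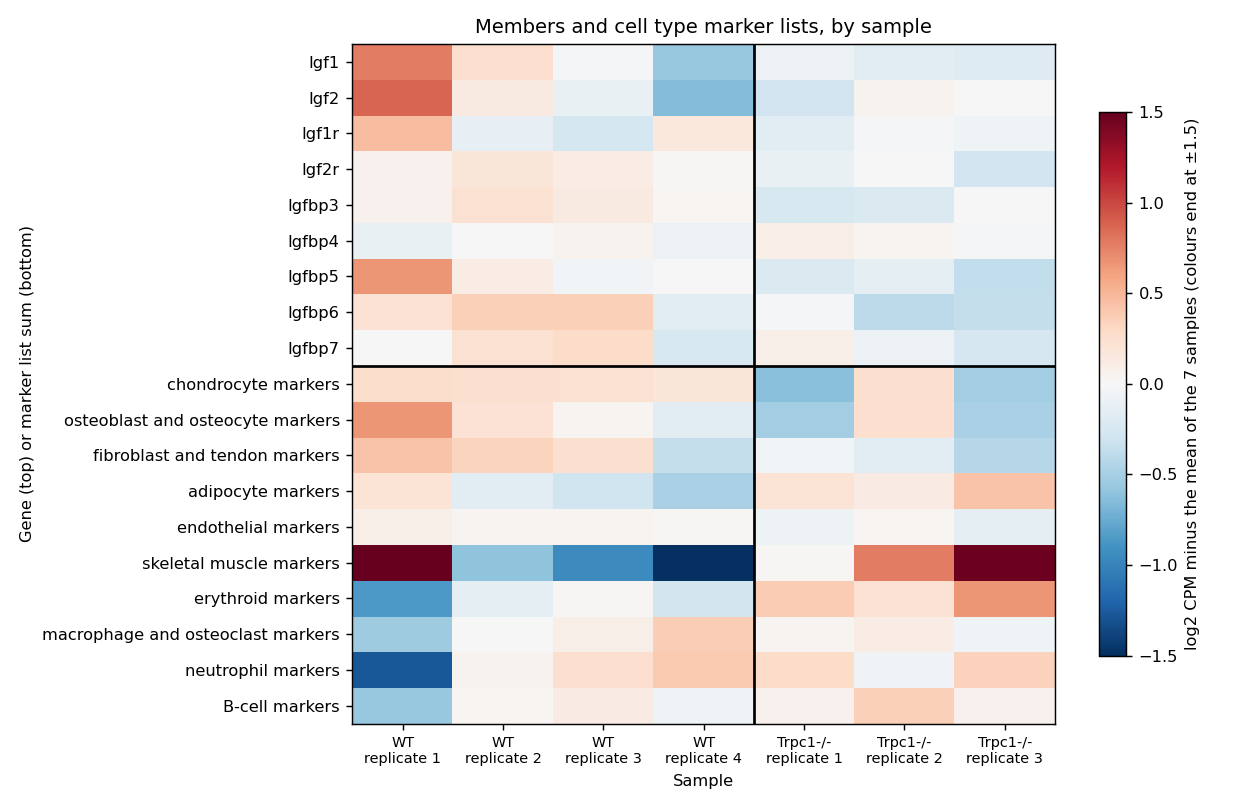
log2 CPM of the 9 tested IGF genes (top) and of the summed level of each cell type marker list (bottom) minus its mean over the 7 samples, with 1 column per sample. WT replicate 1 is high for *Igf1* (0.77), *Igf2* (0.87), *Igfbp5* (0.67), and the skeletal muscle list (1.74, beyond the colour scale) and low for the neutrophil list (−1.27).

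The summed levels of cell type markers varied between samples, and only the erythroid sum was free of overlap between the groups. These sums were not tested. The summed level of 14 erythroid markers was 20233 to 37254 CPM in WT and 43003 to 58396 CPM in Trpc1-/- samples, with all 14 higher in mean. The 15 chondrocyte markers, all lower in mean, summed to 7163 to 7568 CPM in WT and to 4071, 7413, and 4387 CPM in Trpc1-/- replicates 1 to 3. The 12 osteoblast and osteocyte markers summed to 7861 to 13958 CPM in WT and 6149 to 10557 CPM in Trpc1-/- samples. The 10 fibroblast and tendon markers summed to 7351, 6901, 6448, and 4261 CPM in WT replicates 1 to 4 and to 4064 to 5320 CPM in Trpc1-/- samples. The order of the 4 WT samples for *Igf1* and *Igf2* was also that of the chondrocyte, osteoblast, fibroblast, adipocyte, and skeletal muscle sums. It was not that of the endothelial, erythroid, macrophage and osteoclast, neutrophil, or B-cell sums. How many of all tested genes share this order was not counted. Among the Trpc1-/- samples, only the fibroblast sum had the order of *Igf1*, and only the chondrocyte and osteoblast sums had that of *Igf2*. Endothelial markers (10 genes) summed to 398 to 417 CPM in WT and 353 to 400 CPM in Trpc1-/- samples. Adipocyte markers (8 genes) summed to 240 to 386 and 364 to 452 CPM, skeletal muscle markers (10 genes) to 73.3 to 1330 and 403 to 1106 CPM, macrophage and osteoclast markers (11 genes) to 1066 to 1996 and 1467 to 1658 CPM, and B-cell markers (10 genes) to 487 to 786 and 753 to 926 CPM. No list had a marker at 0 in all samples. The part of these differences in the values of the IGF genes was not tested.

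Of the other genes of the pathway, 67 were tested, and edgeR called 0 of them at an adjusted P under 0.05. Over all 16429 tested genes, 51.9% were lower in mean in Trpc1-/- samples, and 5.49% were lower at an unadjusted P under 0.05 in edgeR. For 6.42%, every Trpc1-/- sample was below every WT sample. A further 11 tested genes were listed beside the family, not all of them as members of it. They include *H19*, *Igf2bp2*, *Esm1*, CCN genes, and the protease gene *Htra1*, which is counted again among the proteases. Of these 11, 9 were lower and 2 higher in mean in Trpc1-/- samples (median logFC −0.23), with 3 lower at such a P. All 3 encode CCN matricellular proteins, once named as IGF binding proteins for a shared domain. The list holds a further pair of CCN genes that did not pass, *Ccn4* (logFC −0.23, SE 0.14, adjusted P = 0.593 in edgeR) and *Ccn5* (logFC −0.0079, SE 0.14, adjusted P = 0.988). *Ccn1* had 40.3, 34.3, 31.2, and 28.9 CPM in WT replicates 1 to 4 and 23.8, 24.2, and 18.2 CPM in Trpc1-/- replicates 1 to 3 (logFC −0.61, SE 0.15; adjusted P = 0.395 in edgeR and 0.0227 in DESeq2). *Ccn3* had 20.1, 17.1, 17.4, and 11.9 CPM in WT and 10.5, 10.5, and 10.7 CPM in Trpc1-/- samples (logFC −0.65, SE 0.16; adjusted P = 0.395 in edgeR and 0.0310 in DESeq2). Every Trpc1-/- sample was below every WT sample for both, and also for *Ccn2* (logFC −0.42, SE 0.13, adjusted P = 0.410 in edgeR), the most abundant of them with 223 ± 30.0 CPM over the WT samples (SD, n = 4) against 166 ± 17.1 CPM over the Trpc1-/- samples (SD, n = 3). *Igfbpl1*, *Insrr*, *Ins1*, and *Ins2* had 0 counts in all samples.

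The proteases of binding proteins and their inhibitors were 13 tested genes, of which 12 were lower and 1 higher in mean (median logFC −0.33), with 4 lower at an unadjusted P under 0.05 in edgeR. Of all tested genes, 51.9% were lower in mean and 5.49% were lower at such a P. *Htra3*, a secreted serine protease, had 45.6, 38.1, 38.4, and 30.2 CPM in WT replicates 1 to 4 and 25.9, 27.8, and 25.2 CPM in Trpc1-/- replicates 1 to 3 (logFC −0.53, SE 0.13; adjusted P = 0.395 in edgeR and 0.0310 in DESeq2). *Stc2*, which encodes stanniocalcin-2, an inhibitor of PAPP-A, had 10.3, 6.78, 7.42, and 8.66 CPM in WT and 5.98, 4.73, and 5.18 CPM in Trpc1-/- samples (logFC −0.64, SE 0.17; adjusted P = 0.395 in edgeR and 0.0423 in DESeq2). The groups of both genes did not overlap, where 6.42% of all tested genes were lower without overlap. The related inhibitor *Stc1* had 1.63 to 2.87 CPM in WT and 1.11 to 1.82 CPM in Trpc1-/- samples (logFC −0.70, SE 0.26, adjusted P = 0.461 in edgeR). *Pappa*, the protease itself, which was named after its values were seen, was at −0.021 on the log2 scale (SE 0.13, adjusted P = 0.959 in edgeR). DESeq2 called 4 of the 67 pathway genes, *Ccn1*, *Ccn3*, *Htra3*, and *Stc2*, all lower, where it called 0.828% of all tested genes as lower and 0.962% as higher. The fit with the replicate number as a block also left out WT replicate 4, which has no Trpc1-/- sample of the same number. There DESeq2 called 0.331% of all tested genes, *Ccn1* and *Ccn3* among them, and no longer called *Htra3* or *Stc2*. Without WT replicate 4 and without the block, it called *Ccn1*, *Ccn3*, and *Htra3* but not *Stc2*. When single samples were omitted, DESeq2 called *Ccn1* in 3 of 7 fits, *Ccn3* and *Htra3* in 2, and *Stc2* in 1. In these fits it called 5.49%, 0.38%, 0.82%, and 1.72% of all tested genes without WT replicates 1 to 4 and 0.513%, 2.27%, and 0.226% without Trpc1-/- replicates 1 to 3.

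Downstream of the receptor, 38 genes were tested, of which 16 were higher and 22 lower in mean (median logFC −0.024). Over all tested genes, 51.9% were lower. At an unadjusted P under 0.05 in edgeR, 1 of the 38 was higher and 1 lower, against 4.51% and 5.49% of all tested genes. Every Trpc1-/- sample was above every WT sample for 2 of the 38 genes and below for 0. Over all tested genes this held for 7.15% and 6.42%. *Grb10*, an adaptor that restrains insulin and IGF signaling, was lower at an unadjusted P under 0.05 in edgeR (logFC −0.30, SE 0.11, adjusted P = 0.455). *Socs2*, a feedback inhibitor of growth hormone signaling, belongs to this list and to the growth hormone axis (logFC −0.31, SE 0.14, adjusted P = 0.508 in edgeR). Of the 7 tested genes of that axis, 5 were lower and 2 higher (median logFC −0.051). *Cish*, a target and inhibitor of STAT5, had 4.51, 3.00, 2.45, and 3.56 CPM in WT replicates 1 to 4 and 1.45, 2.32, and 2.29 CPM in Trpc1-/- replicates 1 to 3, without overlap (logFC −0.74, SE 0.27, adjusted P = 0.455 in edgeR). *Stat5b* itself was at −0.093 on the log2 scale (SE 0.067, adjusted P = 0.625 in edgeR).

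**Figure D5:**
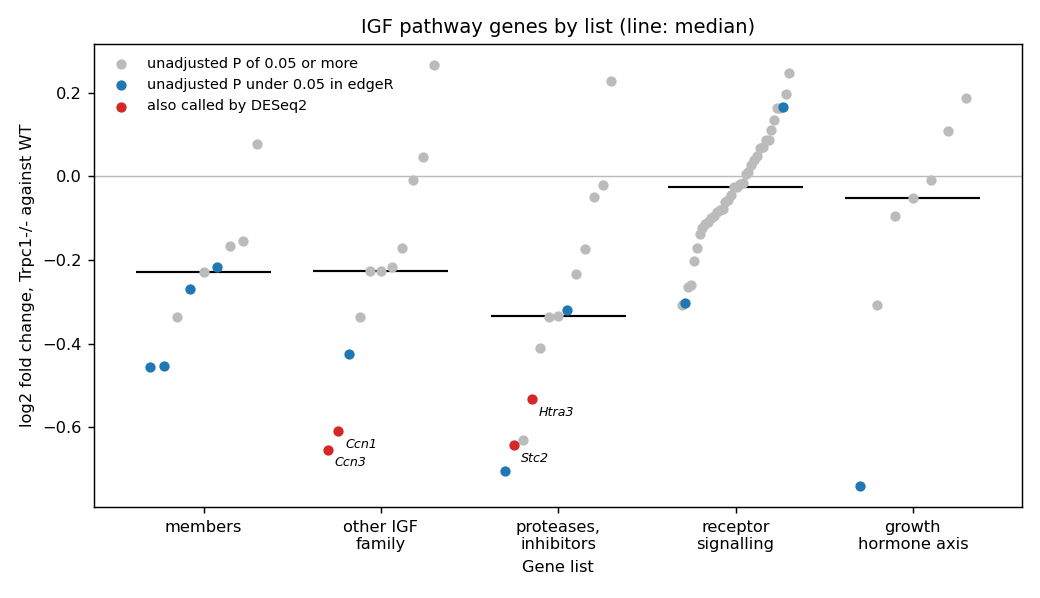
logFC of the tested genes of each list, 1 point per gene ordered by value, with a line at the median of the list. The medians are −0.23 for the members, −0.23 for the genes listed beside the family, and −0.33 for the proteases and inhibitors. They are −0.024 for receptor signaling and −0.051 for the growth hormone axis. Blue points had an unadjusted P under 0.05 in edgeR, and the named red points were also called by DESeq2.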

How the data were processed

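RNA-Seq counts of 7 samples were used, 4 WT and 3 Trpc1-/-, grouped by their titles. Per the labels and methods, the authors trimmed adapters with Cutadapt 2.5, aligned stranded reads to GRCm38 with HISAT2 2.1.0, estimated coverage with StringTie 2.0.3, and turned it into counts per gene with a StringTie script. The deposited values are thus estimated counts, whole numbers that rounding left unchanged, not normalized, for 55401 genes. Positions and exon lengths came from GENCODE M21 and promoters from RefSeq on GRCm38.p6. All 10 gene names matched 1 row each.

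The filter was above 1 CPM in 2 or more samples. Library sizes were scaled by TMM, and edgeR 4.0.16 (R 4.3.3) gave the quasi-likelihood test of genotype, whose F statistic yielded the SEs. DESeq2 1.42.0 and limma-voom (limma 3.58.1) were alternatives, beside other factors, filters, the replicate block, and left-out samples. The fits with the replicate block left out WT replicate 4. Fits were tested on simulated data. log2 CPM for profiles had a prior count of 2. A floor of 3 counts covers counting error only. P values measure the spread between these pooled samples. The members and gene lists were chosen with earlier results of these data known. Named pathway genes are those called by edgeR or DESeq2 and the 3 of each list with the smallest P in edgeR, with exceptions stated, and 1 gene under this rule is not reported here. Of the listed markers, *Ahsp* was not matched.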

Additional observations from a re-analysis of the deposited data

Results flagged for a closer look

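The gap between the most distant sample and the next, divided by the range of the group, was compared with the 95% critical value of Dixon for 4 samples in 35 sets of WT values, of which chance would pass about 1 in 20. It was passed by 2. For the ratio of *Igf1* to *Igf2* per kilobase it was 0.852, with WT replicate 1 at 18.5 and the other WT samples between 21.2 and 21.6, a value still inside the range of the Trpc1-/- samples (17.1 to 22.8). For the summed level of 10 skeletal muscle markers it was 0.851, with 1330 CPM in WT replicate 1 and 73.3 to 261 CPM in the other WT samples. *Igfbp5* came close with 0.823, from 447 CPM in WT replicate 1 and 274 to 304 CPM in the others.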

How the results depend on the processing

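All 9 genes kept their direction in each of the 23 alternatives, except *Igf2*, which turned to 0.10 without WT replicate 1 in edgeR and in DESeq2 and ranged from −0.42 to 0.10 in edgeR over the left-out samples. The count of all genes called went from 0 to 294 with DESeq2 and 1 with limma-voom. It was 54 with DESeq2 and the replicate block, a fit that also left out WT replicate 4. With 1 sample left out and no block, it was 0 to 52 in edgeR (52 without WT replicate 1). In DESeq2 it was then 892, 62, 134, and 281 without WT replicates 1 to 4 and 84, 371, and 37 without Trpc1-/- replicates 1 to 3. The count of IGF genes called ranged from 0 to 1 with a sample left out, and that at an unadjusted P under 0.05 from 1 to 5, against 4. It was 1 in edgeR without WT replicate 2 (*Igfbp6*), without Trpc1-/- replicate 1 (*Igfbp6*), without Trpc1-/- replicate 2 (*Igf2r*), and without Trpc1-/- replicate 3 (*Igfbp3*). Pathway genes called were 4 with DESeq2, 2 with DESeq2 and the replicate block, and 0 to 6 with a sample left out. The order per kilobase kept 6 of 10 ranks with the longest transcript and 3 with the coding length. Without division by length, the binding protein shares were 29.7% for *Igfbp4*, 42.9% for *Igfbp5*, 5.21% for *Igfbp6*, and 19.8% for *Igfbp7*. The difference of the ligand ratio went from −0.26 to −0.045 over the left-out samples, an alternative chosen after seeing the data. Of the 18 genes most alike in profile, 5 remained without WT replicate 1, also chosen after seeing the data. The cause of these shifts was not tested. Samples with the same replicate number did not deviate together (correlations across genes of −0.364, −0.219, and −0.041), and with that number as a block edgeR called 0 genes.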
